A study of Mus musculus with 30 samples.

Results

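The effect of the herbicide quizalofop-p-ethyl (QpE) on gene expression in 3T3-L1 cultures was compared between cultures labelled 12 days and 24 h. The comparison is an interaction, that is the difference between QpE and control cultures at 12 days minus the difference between QpE and control cultures at 24 h. It used 20 of the 30 RNA sequencing libraries of the series, 5 culture replicates in each of 4 groups, which were all those labelled 12 days or 24 h. The groups were QpE at 0.05 mM (50 µM) labelled 12 days, control labelled 12 days, QpE at the same dose labelled 24 h, and control labelled 24 h. The labels name no vehicle for the controls. 3T3-L1 is an established mouse fibroblast line that can be turned into fat cells, and all of the libraries come from this line. All cultures were grown in wells and stayed 2 days in maintenance medium. They then received a differentiation medium with fetal bovine serum, 500 µM isobutylmethylxanthine, which raises cyclic AMP, and 100 nM insulin. QpE was added with fresh medium after a further 2 days, and the protocol then names 6 days of culture. The labels do not say from which day the 12 days were counted, so how long the 12 day cultures were in contact with QpE is not given.

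Fat cell formation in 3T3-L1 cells passes from early inducers such as C/EBPβ to the regulators PPARγ and C/EBPα, which switch on genes for lipid storage while fibroblast matrix genes and inhibitors such as the surface protein DLK1 decline. Wnt and Hedgehog signalling are known to hold this process back. QpE kills grasses by blocking their plastid acetyl-CoA carboxylase, the enzyme that makes malonyl-CoA for fatty acid synthesis. Mammals carry related enzymes, encoded by Acaca and Acacb.

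Estimated depth was 9.52 to 17.46 M fragments per library, M standing for 1e6. The summed FPKM of 7 fat cell markers (Adipoq, Plin1, Cidec, Fabp4, Lipe, Lpl and Cfd) was 3096 to 8234 with QpE at 12 days, 985 to 5087 in 12 day controls, 361 to 622 with QpE at 24 h and 296 to 726 in 24 h controls. The sum of 7 preadipocyte or fibroblast markers was 248 to 1022 with QpE at 12 days, against 1813 to 2177 in 12 day controls. At 24 h it was 1934 to 2399 with QpE, against 2350.5 to 2712 in controls. In bulk RNA, fewer fibroblast-like cells and less RNA per cell cannot be told apart. Sums of 5 markers each of macrophages, endothelial cells and skeletal muscle were at most 5.35, 0.633 and 0.281 FPKM in the 20 libraries, and Myog and Myod1 were listed at 0 in all 4 groups. Replicates 3 and 4 had lower mean levels of 23 adipocyte genes than replicates 1, 2 and 5 in both 12 day groups. Replicate 5 of QpE at 12 days lay farthest along the first principal component, which held 36.2% of the variance and separated the times. Replicates 1 and 5 of QpE at 24 h had 5915 and 9398 FPKM of the ribosomal RNA-derived transcript AY036118, against 930.4 to 2789.9 FPKM in the other 18 libraries. The median SD within a group on the log2 scale was 0.31 with QpE at 12 days, 0.24 in 12 day controls, 0.21 with QpE at 24 h and 0.18 in 24 h controls.

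The effect of QpE differed between the times for 68 of 12389 genes tested (0.549%), 26 of them with a higher (0.21%) and 42 with a lower (0.339%) difference at 12 days than at 24 h (limma on log2(FPKM + 1), Benjamini-Hochberg adjusted p under 0.05 over all genes). At an unadjusted p under 0.05 the interaction held 1963 genes. On its own, QpE against control at 12 days called 499 genes higher (4.03%) and 661 lower (5.34%), 9.36% in all, and 840 and 867 with the replicate number as a block. With 1 of these 10 libraries left out the counts were 145 to 435 higher and 184 to 637 lower, lowest without control replicate 4 (145 higher) and control replicate 2 (184 lower). QpE against control at 24 h called 0 genes higher (0%) and 1 lower (0.00807%), and 997 genes had an unadjusted p under 0.05 there. In all 68 genes the 12 day difference had the sign of the interaction. The 12 day QpE and control libraries did not overlap in 25 of the 26 genes with a higher difference, against 5.81% of all genes tested, and in 42 of the 42 with a lower difference, against 7.43% of all and 13.2% in either direction. At 24 h the libraries did not overlap in 2 of the 26 (0.807% of all genes tested) and 1 of the 42 (0.952%, and 1.76% in either direction). This separation and the interaction use the same 12 day libraries, so the counts describe the calls and add no support. The median difference at 24 h was 0.04 over the 26 genes and -0.10 over the 42, against 0.81 and -1.10 at 12 days. The difference was larger in absolute value at 12 days than at 24 h in 25 of the 26 genes and 42 of the 42. In 12 of the 26 and 11 of the 42 the differences at the 2 times had opposite signs. These medians and counts come from the same values that made the calls, so they too describe the calls and add no support. Over all genes tested the median absolute difference was 0.24 at 12 days and 0.11 at 24 h.

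**Figure D1:**
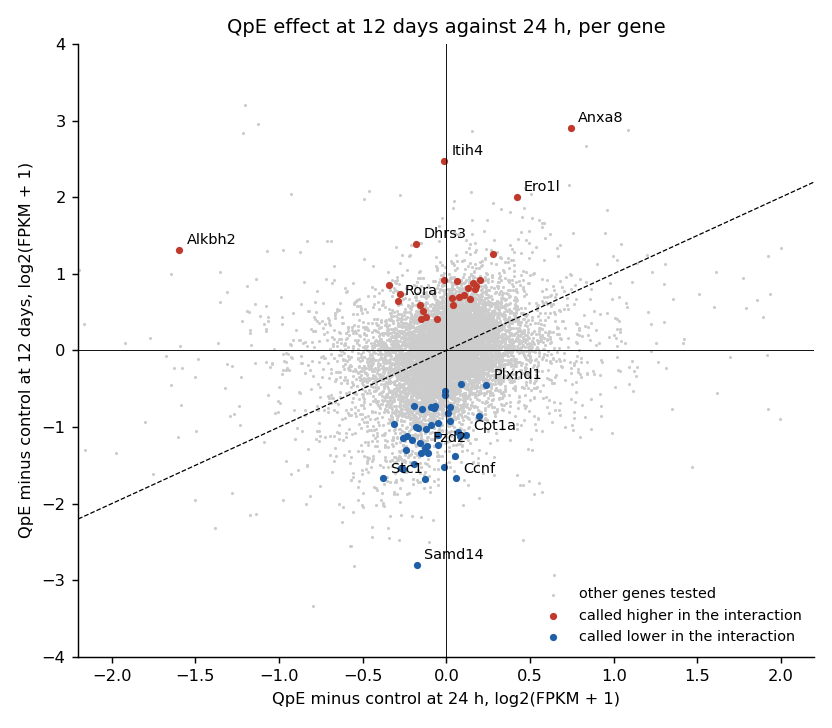
Difference between QpE and control at 12 days (vertical axis) against that at 24 h (horizontal axis), both on the log2(FPKM + 1) scale, for the genes tested; red and blue points are the 26 and 42 genes called higher and lower in the interaction, and the dashed line marks equal differences. The called genes spread more along the vertical axis than along the horizontal one, where they run from -1.60 (Alkbh2) to 0.74 (Anxa8), and 18 genes lie outside the axes.

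The calls stood close to the threshold. For 65 of the 68 genes the adjusted p lay between 0.0422 and 0.0484, and the count moved with single libraries. Without any 1 of 15 libraries, among them all controls, 3 to 7 genes were called in all. Without QpE replicate 1, 2, 4 or 5 at 12 days or QpE replicate 4 at 24 h, 28 to 82 were called higher and 42 to 172 lower. Samd14, Ccnf and Fzd2 were called in all 20 of these fits, and all 68 genes kept their sign in all of them. Without both QpE libraries at 24 h with high AY036118, 0 genes were called higher and 1 lower. With weights that allow each group its own spread, 70 genes were called higher (0.565%) and 161 lower (1.3%), among them all 68. With the replicate number as a block within each time, 76 genes were called higher (0.613%) and 88 lower (0.71%), among them 17 of the 26 and 28 of the 42. Of the genes named here, Ero1l, Itih4, Apopt1, Cpt1a, Fam20c, Id4, Sod3 and Loxl1 lost their call with the block. When each gene was represented by its most abundant transcript, 0 genes were called higher and 3 lower. Without QpE replicate 5 at 12 days, when 0.412% of all genes were called higher and 1.39% lower, Dlk1, Lum, Timp1, Tgfb3, Dcn, Idh3b, Mxi1 and Psmb8, which missed the threshold with all libraries, passed it.

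**Figure D2:**
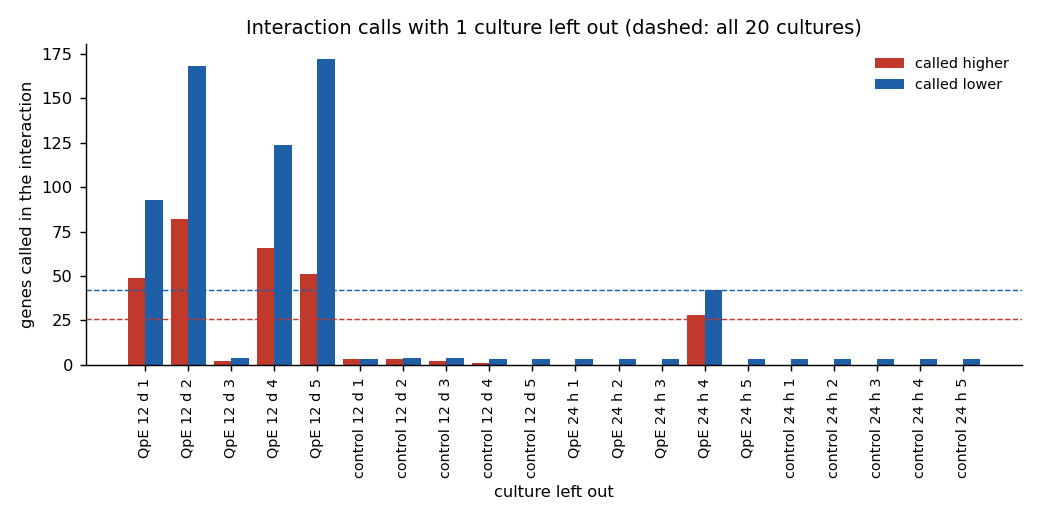
Number of genes called higher (red) and lower (blue) in the interaction when 1 culture was left out; cultures are named by group and replicate, and dashed lines give the 26 and 42 genes called with all 20. Most bars stand at 0 to 4 genes, and leaving out QpE replicate 5 at 12 days gave 51 higher and 172 lower.

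Among the genes with a higher difference at 12 days, Anxa8 (chr14:34085981-34100571, GRCm38), an annexin that binds membranes in the presence of calcium, had the largest 12 day difference. It had 224, 214, 185, 145 and 623 FPKM with QpE at 12 days, against 35.3, 27.6, 32.8, 33.2 and 27.8 FPKM in 12 day controls. In 24 h cultures it had 18.5, 20.5, 37.3, 23.3 and 14.3 FPKM with QpE, against 13.0, 16.3, 14.4, 9.93 and 10.1 FPKM in controls. QpE libraries lay above all controls at 12 days and overlapped them at 24 h, where all but 1 of the QpE values exceeded the highest control. The difference was 2.91 ± 0.33 (SE, n = 5 against 5) at 12 days and 0.74 ± 0.23 at 24 h, and the interaction was 2.17 ± 0.42 (limma, adjusted p = 0.0422). Without QpE replicate 5 at 12 days the interaction of Anxa8 was 1.82.

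Itih4 (chr14:30886476-30902353, GRCm38), a heavy chain of the inter-alpha-trypsin inhibitor family that livers secrete into plasma, was at or near 0 at 24 h. It had 19.6, 15.4, 18.9, 11.9 and 115 FPKM with QpE at 12 days, against 3.89, 3.54, 4.28, 2.93 and 3.05 FPKM in 12 day controls. At 24 h it reached at most 0.0933 FPKM with QpE and 0.152 FPKM in controls, so a difference there could not be seen on the log2(FPKM + 1) scale. The interaction was 2.49 ± 0.54 (limma, adjusted p = 0.047, or 0.0509 with the replicate block), and 1.94 without QpE replicate 5 at 12 days.

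Ero1l (chr14:45283087-45318771, GRCm38), the endoplasmic reticulum oxidase that recharges protein disulfide isomerase and a textbook target of the hypoxia-inducible factors (HIF), had 250.3, 272, 179, 168 and 532 FPKM with QpE at 12 days, against 65.4, 73.3, 75.7, 53.4 and 51.2 FPKM in 12 day controls. The 24 h levels were 24.5, 23.2, 22.3, 19 and 16.9 FPKM with QpE, against 19.9, 18.6, 13.8, 11.6 and 14.7 FPKM in controls. The groups were apart at 12 days and overlapped at 24 h. The difference was 2.00 ± 0.29 at 12 days and 0.42 ± 0.15 at 24 h, with an interaction of 1.58 ± 0.34 (limma, adjusted p = 0.0464, or 0.0509 with the replicate block).

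Ero1l was the 1 called member of 21 tested genes for oxygen sensing and HIF targets, whose median interaction was 0.35, against -0.01 for all genes tested. Of all genes tested, 0.21% were called higher in this fit. With the replicate block 3 members were called higher, against 0.613% of all genes tested. With weights per group 5 members were called, all higher, against 0.565% of all genes tested. These were Egln3, Ero1l, Bnip3, Mxi1 and Bnip3l, and all but Ero1l were chosen for mention after their values were seen. Egln3, an oxygen-sensing prolyl hydroxylase that marks HIF for destruction, had 34.6, 40.8, 9.79, 10.1 and 53.8 FPKM with QpE at 12 days, against 8.99, 7.65, 5.45, 4.62 and 6.96 FPKM in 12 day controls. At 24 h it lay at 1.72 to 2.62 FPKM with QpE, against 1.74 to 2.79 FPKM in controls. Its interaction was 1.75 ± 0.50 (limma, adjusted p = 0.0912, or 0.0399 with weights). Bnip3, a mitochondrial protein that recruits the autophagy machinery, had 359.6, 379.8, 141, 137 and 490.3 FPKM with QpE at 12 days, against 97.5, 78.5, 72.4, 67.3 and 89.5 FPKM in 12 day controls. At 24 h its range was 30.2 to 36.4 FPKM with QpE, against 25.2 to 29.6 FPKM in controls. The interaction was 1.46 ± 0.38 (limma, adjusted p = 0.0764, or 0.0282 with weights). Its QpE libraries lay above all controls at both times. In both genes replicates 3 and 4 of QpE at 12 days were lower than the other 3, and the part of fat cell content in this was not tested. The list's median interaction was 0.54 in replicates 1, 2 and 5 and -0.02 in replicates 3 and 4. The RefSeq promoters (GRCm38.p6, 250 bases before to 50 after the start) of Ero1l, listed there under the later symbol Ero1a, Egln3 and Bnip3 are shown because these were the 3 largest interactions of the list. Capitals mark the core of the HIF response element, ACGTG, or its complement CACGT on the printed strand, and the pair overlap in the CACGTG of Bnip3.
Ero1l, chr14:45318523-45318822, minus strand: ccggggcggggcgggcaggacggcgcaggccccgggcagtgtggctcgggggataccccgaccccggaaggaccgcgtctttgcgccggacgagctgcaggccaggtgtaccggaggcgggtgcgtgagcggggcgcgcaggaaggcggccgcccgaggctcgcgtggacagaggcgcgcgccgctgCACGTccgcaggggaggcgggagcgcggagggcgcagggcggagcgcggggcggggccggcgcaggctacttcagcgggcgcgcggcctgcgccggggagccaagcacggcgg
Egln3, chr12:54203825-54204124, minus strand: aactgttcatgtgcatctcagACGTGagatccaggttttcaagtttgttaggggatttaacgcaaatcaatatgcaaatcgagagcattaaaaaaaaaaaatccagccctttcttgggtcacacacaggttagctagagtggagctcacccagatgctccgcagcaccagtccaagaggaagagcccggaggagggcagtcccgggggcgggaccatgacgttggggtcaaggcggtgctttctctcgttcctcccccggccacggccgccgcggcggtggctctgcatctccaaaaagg
Bnip3, chr7:138909457-138909756, minus strand: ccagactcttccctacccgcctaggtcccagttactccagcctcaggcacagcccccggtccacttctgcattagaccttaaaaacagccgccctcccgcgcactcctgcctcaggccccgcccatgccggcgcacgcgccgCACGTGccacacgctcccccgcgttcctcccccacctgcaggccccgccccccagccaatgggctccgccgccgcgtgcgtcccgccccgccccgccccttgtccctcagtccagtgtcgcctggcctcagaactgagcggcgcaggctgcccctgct
The motif was present on either strand in 19.6% of 32851 promoters of this length and in at least 1 listed promoter of 15 of the 21 list genes that had one. The first value counts single promoters and the second counts genes with up to 3 promoters, so they are not like measures. These 21 include Car9, Car12 and Stc2, which were not tested, and lack Epas1, Bnip3l and Ndrg1, for which no promoter was listed. A match of these letters is a description of the window, not a bound site.

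A pair of retinoid enzymes were called in opposite directions. Dhrs3, which reduces retinaldehyde to retinol, had 34.8, 34.7, 24.3, 24.6 and 55.7 FPKM with QpE at 12 days, against 15.9, 13.9, 10.0, 8.0 and 14 FPKM in 12 day controls. At 24 h the order was the other way, with 4.07 to 5.50 FPKM with QpE, against 4.80 to 6.12 FPKM in controls, and the groups overlapped. Its interaction was 1.58 ± 0.28 (limma, adjusted p = 0.0422), but 0.10 when the most abundant of its 7 transcripts alone was used. Rdh10, which oxidizes retinol to retinaldehyde and was picked after its values were seen, had 5.38, 5.09, 4.16, 4.58 and 5.53 FPKM with QpE at 12 days, against 9.50, 9.71, 7.58, 9.32 and 9.47 FPKM in 12 day controls. Its 24 h values were 11.8 to 13.5 FPKM with QpE, against 13.3 to 14.5 FPKM in controls. The interaction of Rdh10 was -0.62 ± 0.11 (limma, adjusted p = 0.0422).

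Ndufv2, a subunit of respiratory complex I, had 146, 169.8, 163, 168 and 168 FPKM with QpE at 12 days, against 100.0, 104, 92.3, 75.8 and 90.2 FPKM in 12 day controls. After 24 h it had 56.6 to 77.3 FPKM with QpE, against 58.8 to 68.0 FPKM in controls, with overlap. The interaction was 0.69 ± 0.13 (limma, adjusted p = 0.0422), with 0.46 (adjusted p = 0.366) for its most abundant transcript alone, and it was the 1 called member of 31 tested nuclear genes of oxidative phosphorylation. Of these 31, 30 had an interaction above 0, with a median of 0.36 (0.21 with quantile normalization), and 14 were called higher at 12 days, where 4.03% of all genes were, and 0 lower. In the interaction 0.21% of all genes tested were called higher. The share of FPKM in genes of the mitochondrial genome was 0.352 to 1.92% with QpE at 12 days, against 0.759 to 3.59% in 12 day controls, with overlap. Hspd1, the mitochondrial chaperonin HSP60, listed among heat shock proteins, had an interaction of 0.67 ± 0.12 (limma, adjusted p = 0.0422). It averaged 189 ± 18.9 FPKM with QpE at 12 days, 105 ± 9.44 in 12 day controls, 72.4 ± 3.95 with QpE at 24 h and 64.1 ± 6.17 in 24 h controls (SD, n = 5 each). In the list for the TCA cycle and pyruvate entry no member was called, and the median interaction of its 20 tested members was 0.39. With the replicate block 2 of them were called higher, against 0.613% of all genes tested. Idh3b, a subunit of isocitrate dehydrogenase, had an interaction of 0.58 ± 0.13 (limma, adjusted p = 0.0505).

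Another 4 genes of the higher group had interactions of less than 1 on the log2 scale. Mpp6, a scaffold protein of the membrane-associated guanylate kinase family, averaged 27.5 ± 7.03 FPKM with QpE at 12 days and 10.7 ± 1.59 FPKM in 12 day controls (SD, n = 5 each), with an interaction of 0.98 ± 0.20, but its most abundant transcript alone gave 0.63 (adjusted p = 0.618). Desi1, a protease for SUMO, averaged 39.7 ± 10.9 and 20.2 ± 1.66 FPKM in these groups, with 0.84 ± 0.17. Sccpdh averaged 49.0 ± 9.85 and 25.3 ± 4.69 FPKM, with 0.94 ± 0.17. Rcl1, which takes part in ribosomal RNA processing, averaged 67.4 ± 13.8 and 34.7 ± 3.42 FPKM, with 0.72 ± 0.15. Each of these 4 had limma adjusted p = 0.0422. Their QpE libraries at 12 days all lay above the controls, as the rule that named them required, against 5.81% of all genes tested.

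**Figure D3:**
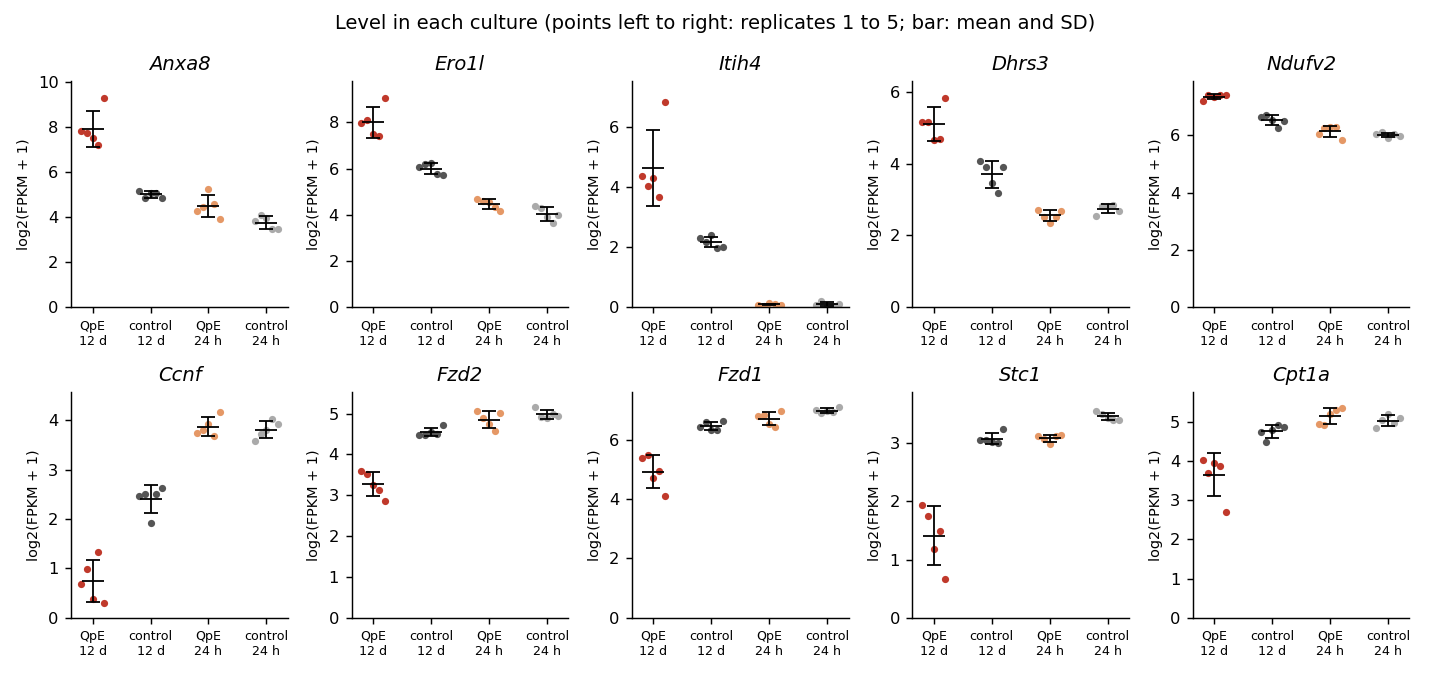
Level of 10 genes named in the text, as log2(FPKM + 1), in each culture of QpE at 12 days, control at 12 days, QpE at 24 h and control at 24 h (left to right); points are replicates 1 to 5 and bars the mean and SD. In all 10 genes the 12 day QpE cultures lie apart from the 12 day controls, while at 24 h the groups overlap in all but Stc1. All were picked among called genes, several by a rule that asked for separate 12 day groups, so the pattern adds no support. Of all genes tested, 13.2% had groups apart at 12 days and 1.76% at 24 h.

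On the lower side, Ccnf (chr17:24223232-24251409, GRCm38), which encodes cyclin F, a substrate receptor of a ubiquitin ligase that peaks in G2, was called in every fit with 1 library left out. It had 0.615, 0.992, 0.302, 1.51 and 0.233 FPKM with QpE at 12 days, against 4.55, 4.67, 2.81, 4.67 and 5.22 FPKM in 12 day controls. At 24 h it had 12.4, 13.1, 14.3, 11.9 and 17 FPKM with QpE, against 10.9, 12.3, 12.9, 15.4 and 14.1 FPKM in controls. The groups were apart at 12 days and intermixed at 24 h. The interaction was -1.73 ± 0.25 (limma, adjusted p = 0.0121). The assembled locus of Ccnf holds 3 named genes, and how reads were divided among them was not tested. Of 27 tested genes of replication and mitosis, none was called in the interaction or at 12 days, and their median difference was -0.02 at 12 days and 0.25 at 24 h, with 25 of the 27 above 0 at 24 h. Their median interaction was -0.31, or -0.15 in replicates 1, 2 and 5 and -0.50 in replicates 3 and 4. E2f1, a transcription factor of the G1 to S transition, had an interaction of -0.40 ± 0.14 (limma, adjusted p = 0.15).

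Fzd1 and Fzd2, both receptors for Wnt ligands, were called lower. Fzd2 (chr11:102604396-102608058, GRCm38), mentioned because it too was called in every fit with 1 library left out, had 11, 10.5, 8.45, 7.75 and 6.29 FPKM with QpE at 12 days, against 21.3, 21.1, 22.4, 21.7 and 25.2 FPKM in 12 day controls. In 24 h cultures it had 32.4, 28.6, 25.6, 22.7 and 31.1 FPKM with QpE, against 34.7, 29.1, 28.7, 30.6 and 29.9 FPKM in controls. At 12 days all QpE libraries lay below the controls, and at 24 h the groups overlapped. The interaction was -1.15 ± 0.17 (limma, adjusted p = 0.0124). Fzd1 had 40.4, 43.6, 25.4, 29.6 and 16 FPKM with QpE at 12 days, against 85.8, 94.8, 78.8, 79.4 and 97.8 FPKM in 12 day controls, and its interaction was -1.27 ± 0.27 (limma, adjusted p = 0.0452). At 24 h Fzd1 had 85.6 to 123 FPKM with QpE, against 117 to 136 FPKM in controls. Tle2, a co-repressor that binds the nuclear effectors of Wnt signalling, averaged 1.60 ± 0.818 FPKM with QpE at 12 days and 7.13 ± 2.01 FPKM in 12 day controls (SD, n = 5 each), with an interaction of -1.55 ± 0.33 (limma, adjusted p = 0.047). With the unnamed transcripts of its locus added, Tle2 had -1.37 and an adjusted p = 0.0518.

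Of 17 tested regulators that hold back fat cell formation, Sox9 was the 1 called member, and 15 had an interaction below 0, with a median of -0.50, or -0.60 in replicates 1, 2 and 5 and -0.17 in replicates 3 and 4. Of all genes tested, 0.339% were called lower in the interaction. Sox9, a transcription factor that keeps preadipocytes undifferentiated, had 4.42, 4.14, 6.17, 6.47 and 4.08 FPKM with QpE at 12 days, against 8.43, 9.19, 12.0, 12.8 and 10.6 FPKM in 12 day controls. The 24 h levels were 14.5 to 17.8 FPKM with QpE, against 14.2 to 21.2 FPKM in controls, with overlap. The interaction of Sox9 was -0.89 ± 0.19 (limma, adjusted p = 0.047). Dlk1, the preadipocyte protein that blocks differentiation, had 293, 396, 233, 125 and 119 FPKM with QpE at 12 days, against 606, 628, 655, 665 and 814 FPKM in 12 day controls. Its 24 h values were 847 to 951 FPKM with QpE, against 937 to 1181 FPKM in controls. The interaction of Dlk1 was -1.48 ± 0.34 and missed the threshold (limma, adjusted p = 0.0564), while it passed with weights (adjusted p = 0.02) and with unnamed transcripts added (adjusted p = 0.0355). Id4, which blocks helix-loop-helix factors, is not a member of this list and was named for the size of its interaction. It averaged 2.16 ± 1.06 FPKM with QpE at 12 days and 7.90 ± 1.28 FPKM in 12 day controls (SD, n = 5 each). The interaction of Id4 was -1.29 ± 0.28 (limma, adjusted p = 0.047, or 0.0546 with the replicate block).

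Loxl1, which cross-links elastic fibres, had 71.4, 81.0, 65.9, 68.9 and 43.1 FPKM with QpE at 12 days, against 132, 139, 146, 153 and 187 FPKM in 12 day controls. After 24 h it had 127 to 228 FPKM with QpE, against 179 to 222 FPKM in controls. Its interaction was -1.05 ± 0.23 (limma, adjusted p = 0.047, or 0.0526 with the replicate block), and it was the 1 called member of 29 tested extracellular matrix genes. Of these 29, 27 had an interaction below 0, with a median of -0.66 (-0.42 without QpE replicate 5 at 12 days), and 10 were called lower at 12 days, where 5.34% of all genes were, and 0 higher. In the interaction 0.339% of all genes tested were called lower. Has2, which makes hyaluronan, had 19.8, 19.9, 12.3, 18 and 7.90 FPKM with QpE at 12 days, against 34.3, 32.1, 30.6, 35.1 and 33.6 FPKM in 12 day controls. At 24 h it had 61.6 to 67.0 FPKM with QpE, against 52.6 to 66.0 FPKM in controls. The interaction of Has2 was -1.19 ± 0.24 (limma, adjusted p = 0.0422). Sod3, the extracellular superoxide dismutase, averaged 25.1 ± 7.86 FPKM with QpE at 12 days and 62.7 ± 9.70 FPKM in 12 day controls (SD, n = 5 each), with an interaction of -1.24 ± 0.27 (limma, adjusted p = 0.047, or 0.0656 with the replicate block). Fam20c, a Golgi kinase for secreted proteins, averaged 8.48 ± 3.45 and 22.2 ± 2.10 FPKM in these groups, with -1.43 ± 0.30 (limma, adjusted p = 0.0452, or 0.0509 with the replicate block). Vstm2a, a secreted protein of preadipocytes, averaged 3.16 ± 1.44 and 10.3 ± 1.80 FPKM, with -1.30 ± 0.27 (limma, adjusted p = 0.0452). Igsf10 averaged 2.17 ± 1.22 and 7.38 ± 0.967 FPKM, with -1.51 ± 0.33 (limma, adjusted p = 0.0484), but its most abundant transcript alone gave -0.50.

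The small leucine-rich proteoglycans, which bind collagen fibrils, had none of 10 tested members called in the interaction, although all 10 had a value below 0 and the median was -1.15. At 12 days 5 of them were called lower, against 5.34% of all genes. Dcn (decorin) had 349, 373, 275, 362 and 26.4 FPKM with QpE at 12 days, against 1016, 1029, 1172, 1167 and 1145 FPKM in 12 day controls. In 24 h cultures it had 895 to 1248 FPKM with QpE, against 1244 to 1520 FPKM in controls. Its interaction was -1.99 ± 0.69 (limma, adjusted p = 0.156), and without QpE replicate 5 at 12 days it was -1.26 with an adjusted p = 0.00117. Lum (lumican) had 1.43 FPKM in that replicate and 14.6 to 31.0 FPKM in the other 4, against 64.7 to 93.6 FPKM in 12 day controls. The interaction of Lum was -2.19 ± 0.66 (limma, adjusted p = 0.108). The 15 tested matrix proteases and inhibitors had no call and a median interaction of -1.20, with Timp1, an inhibitor of metalloproteinases, at -1.48 ± 0.48 (limma, adjusted p = 0.128). Without QpE replicate 5 at 12 days, the medians of these lists were -0.77 and -0.70, and 3 and 4 members were called lower, in a fit that called 172 of all 12389 genes lower (1.39%).

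**Figure D4:**
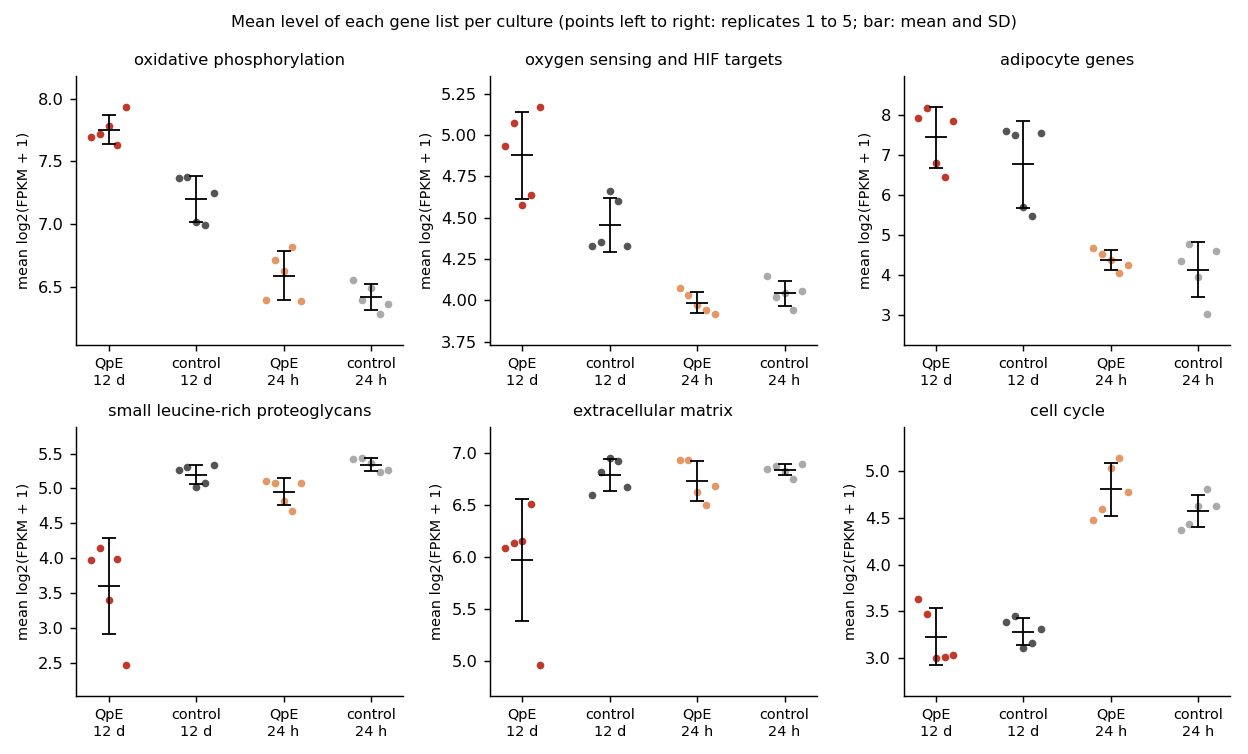
Mean log2(FPKM + 1) over the tested members of 6 gene lists in each culture, with QpE at 12 days, control at 12 days, QpE at 24 h and control at 24 h from left to right; points are replicates 1 to 5 and bars the mean and SD. For oxidative phosphorylation the QpE cultures at 12 days (7.63 to 7.94) lie above the 12 day controls (6.99 to 7.37), while for adipocyte genes the ranges at 12 days overlap (6.44 to 8.17 with QpE, 5.47 to 7.61 in controls). Within each replicate number the 12 day QpE culture lies above its control for adipocyte genes.

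The lowest adjusted p, that of Samd14 (chr11:95009879-95026087, GRCm38), depended on which transcripts were summed. Its named transcripts had 0, 0, 0, 0.76 and 0 FPKM with QpE at 12 days, against 7.24, 6.47, 6.39, 6.14 and 7.81 FPKM in 12 day controls, and at 24 h 8.79 to 11 FPKM with QpE, against 11 to 12.3 FPKM in controls. The interaction on that basis was -2.62 ± 0.19 (limma, adjusted p = 5.14e-07). With unnamed assembled transcripts of the locus added, the 12 day values were 2.25, 4.07, 2.37, 2.72 and 1.29 FPKM with QpE, against 7.25, 6.48, 6.4, 6.95 and 7.81 FPKM in controls, and the interaction was -1.07 (adjusted p = 0.0252). Alkbh2, a DNA repair demethylase and the 1 gene called for QpE at 24 h, also depended on this and was added after its values were seen. Its named transcripts had 0, 0, 0.373, 0 and 0 FPKM with QpE at 24 h, against 3.09, 2.42, 1.79, 2.44 and 1.60 FPKM in 24 h controls, with a difference of -1.60 ± 0.15 (limma, adjusted p = 0.0117). With the unnamed transcripts, the 24 h values were 1.47 to 2.89 FPKM with QpE, against 1.87 to 3.33 FPKM in controls, and its interaction was 0.69 (adjusted p = 0.148), against 2.91 without them. Of the 68 called genes, 23 of the 26 and 41 of the 42 were also called with unnamed transcripts added.

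Genes whose differences had opposite signs at the 2 times form a set chosen for that pattern, so its members are described and not tested further. Rora, a nuclear receptor that acts in the circadian clock and in lipid metabolism, had 12.2, 13.1, 12.1, 11 and 15.7 FPKM with QpE at 12 days, against 8.32, 8.37, 8.78, 7.56 and 6.02 FPKM in 12 day controls. The 24 h levels were 3.69, 2.63, 3.53, 3.41 and 2.89 FPKM with QpE, against 3.86, 4.73, 5.28, 3.77 and 3.34 FPKM in controls. QpE was higher in all libraries at 12 days and mostly lower, with overlap, at 24 h. Its interaction was 0.94 ± 0.18 (limma, adjusted p = 0.0422), with differences of 0.65 ± 0.13 at 12 days and -0.29 ± 0.13 at 24 h. Mtor, the kinase of nutrient-sensing complexes, averaged 14.4 ± 1.71 FPKM with QpE at 12 days and 9.80 ± 0.90 FPKM in 12 day controls (SD, n = 5 each). Its interaction of 0.65 ± 0.13 became 0.49 (limma, adjusted p = 0.10) with unnamed transcripts added. Its differences were then 0.51 at 12 days and 0.02 at 24 h, of the same sign. Ccdc107 had 1.20 ± 0.23 on named transcripts and 0.51 (adjusted p = 0.0653) with the unnamed ones. Apopt1, known for its part in cytochrome c oxidase assembly, had an interaction of 0.57 ± 0.12 (limma, adjusted p = 0.0452, or 0.0509 with the replicate block).

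In the other direction, Cpt1a, which carries long-chain fatty acids into mitochondria for oxidation and is inhibited by the malonyl-CoA that acetyl-CoA carboxylase makes, had 15.4, 11.9, 14.5, 13.7 and 5.48 FPKM with QpE at 12 days, against 25.9, 21.4, 26.5, 29.1 and 28.3 FPKM in 12 day controls. Its 24 h values were 29.8, 29.4, 36.0, 38.2 and 40.1 FPKM with QpE, against 27.5, 32.1, 35.8, 30.5 and 33.4 FPKM in controls. The groups were apart at 12 days and overlapped at 24 h. The interaction of Cpt1a was -1.22 ± 0.27 (limma, adjusted p = 0.047, or 0.0509 with the replicate block), and -0.98 (adjusted p = 0.0035) without QpE replicate 5 at 12 days. It went against its own list, since 20 of 22 tested genes of fatty acid oxidation and PPAR targets had an interaction above 0, with a median of 0.30 and Cpt1a as the 1 call. This median was 0.16 without control replicate 4 at 12 days and 0.15 with quantile normalization. Of all genes tested, 0.339% were called lower in the interaction. Plxnd1, a semaphorin receptor, had 37.0 to 57.8 FPKM with QpE at 12 days, against 61.3 to 62.6 FPKM in 12 day controls, and 63.6 to 80.8 FPKM with QpE at 24 h, against 50.7 to 68.4 FPKM in 24 h controls. Its interaction was -0.69 ± 0.15. Eva1b had an interaction of -1.13 ± 0.23, or -1.74 (adjusted p = 0.162) for its most abundant transcript alone. With unnamed transcripts added, the differences of Eva1b were -1.36 at 12 days and -0.09 at 24 h, of the same sign. Of the genes of opposite sign, Alkbh2 alone had a 24 h difference that passed the test, that of -1.60 on named transcripts given above.

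The 5 genes with the smallest p at 24 h within the limits on level and symbol set for named genes did not pass adjustment there. Stc1, the secreted hormone stanniocalcin, had 7.70, 7.38, 6.90, 7.70 and 7.79 FPKM with QpE at 24 h, against 10.8, 10.4, 9.82, 9.61 and 9.57 FPKM in 24 h controls, with no overlap. At 12 days it had 2.85, 2.38, 1.27, 1.83 and 0.578 FPKM with QpE, against 7.37, 7.28, 7.14, 7.03 and 8.43 FPKM in controls. The difference was therefore in the same direction at both times and larger at 12 days, with an interaction of -1.29 ± 0.23 (limma, adjusted p = 0.0422). Rnd3, a small GTP-binding protein, had a difference of -0.46 ± 0.07 at 24 h and -1.04 ± 0.18 at 12 days, and an interaction of -0.58 ± 0.20 (limma, adjusted p = 0.145). Tgfb3, a TGF-beta ligand, had -0.51 ± 0.08 at 24 h and -1.56 ± 0.28 at 12 days, and an interaction of -1.05 ± 0.31 (limma, adjusted p = 0.0958). Fkbp5, a glucocorticoid-induced co-chaperone, had 14.4, 22.1, 13.6, 14.4 and 161 FPKM with QpE at 12 days, against 8.68, 6.48, 8.44, 11 and 7.28 FPKM in 12 day controls. After 24 h it had 16.1 to 20.9 FPKM with QpE, against 10.4 to 13.5 FPKM in controls. The interaction of Fkbp5 was 0.90 ± 0.64 (limma, adjusted p = 0.534), or 0.24 without QpE replicate 5 at 12 days. Rbms1, an RNA-binding protein, had -0.50 ± 0.08 at 24 h and -0.46 ± 0.18 at 12 days (limma, adjusted p = 0.134, or 0.0369 with the replicate block), with an interaction of 0.04 ± 0.20.

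Early and late differences had the same sign more often than the share of each sign among all genes. The 2 times have separate QpE and control libraries. Of 506 genes higher with QpE at 24 h at an unadjusted p under 0.05, 76.9% were also higher at 12 days, against 50.7% of all genes tested, with a median of 0.27 at 12 days and 0.31 at 24 h. Of 491 lower at 24 h, 85.3% were lower at 12 days, against 49.3% of all, with a median of -0.56 at 12 days and -0.35 at 24 h. Both sets were chosen by their 24 h values, which enlarges the 24 h medians but not the 12 day ones. The medians of the 2 times are therefore not comparable as sizes of effect. Among these 997 genes, 89 and 157 were called in the same direction at 12 days, and 3 and 3 in the opposite one. Across the 12389 genes, which are not independent, the differences at the 2 times had a Pearson correlation of 0.26. The median absolute difference was 0.24 at 12 days and 0.11 at 24 h.

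**Figure D5:**
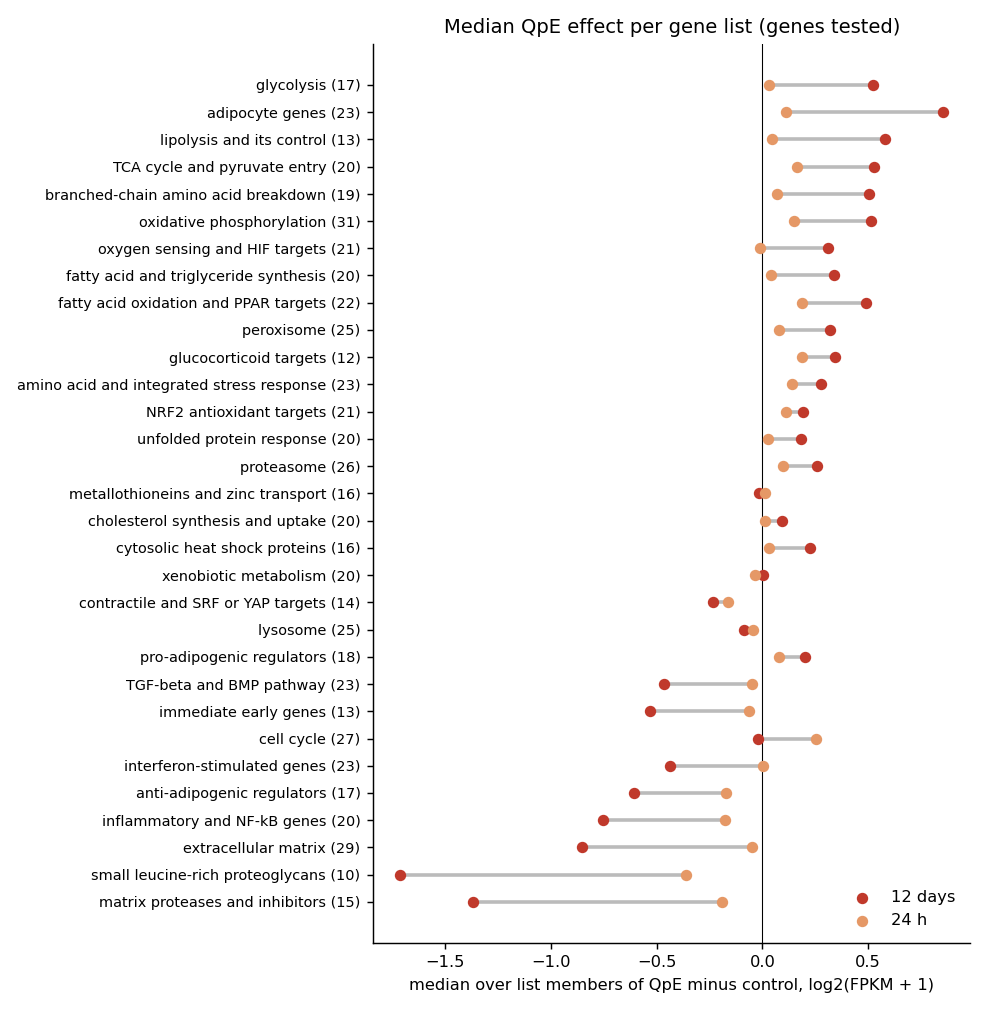
Median difference between QpE and control over the tested members of 31 gene lists (number tested in parentheses) on the log2(FPKM + 1) scale, at 12 days (red) and 24 h (orange), ordered by the median interaction. The small leucine-rich proteoglycans have -1.71 at 12 days and -0.36 at 24 h, oxidative phosphorylation 0.51 and 0.15, and cell cycle genes -0.02 and 0.25.

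Over all 31 lists, 6 members were called in the interaction, in a fit that called 0.549% of all genes tested. They were Sox9, Cpt1a, Ndufv2, Ero1l, Hspd1 and Loxl1. With the replicate block within each time 24 members were called, among them Sox9, Ndufv2 and Hspd1 but not the other 3. That fit called 0.613% of all genes tested higher and 0.71% lower. The lists held 10 to 31 tested genes each and shared some genes, so the 6 and 24 members are not given as shares. Whether list members were called more often than other genes was not tested. The inflammatory and NF-kB genes had a median interaction of -0.51 with 17 of 20 below 0. It was -0.84 without QpE replicate 3 at 12 days and -0.43 without control replicate 2 at 24 h. The chemokine Cxcl5 stood at -1.55 ± 0.59 (limma, adjusted p = 0.196), or -0.97 (adjusted p = 0.0641) without QpE replicate 5 at 12 days. Interferon-stimulated genes had -0.40 with 20 of 23 below 0, or -0.24 without QpE replicate 3 at 24 h, and the immunoproteasome subunit Psmb8 at -1.10 ± 0.25 (limma, adjusted p = 0.0518, or 0.14 with unnamed transcripts added). Genes of branched-chain amino acid breakdown had 0.37 with 17 of 19 above 0, or 0.21 without control replicate 3 at 12 days. None of the 19 was called, but 6 were called higher with the replicate block, against 0.613% of all genes. The mitochondrial dehydrogenase Aldh6a1 stood at 0.89 ± 0.30 (limma, adjusted p = 0.138). Glycolysis genes had 0.54 with 12 of 17 above 0, or 0.61 in replicates 1, 2 and 5 and 0.03 in replicates 3 and 4 and 0.36 without QpE replicate 5 at 12 days, and the hexokinase Hk2 at 0.73 ± 0.20 (limma, adjusted p = 0.0865). The list for integrated stress and amino acid responses had 0.17 with 17 of 23 above 0, or 0.08 with quantile normalization. Its member Nupr1, a stress-induced chromatin protein, stood at 0.97 ± 0.27 (limma, adjusted p = 0.0865), or 3.98 (adjusted p = 0.252) for its most abundant transcript alone.

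Of 23 tested adipocyte genes none was called in the interaction, while 3 were called higher at 12 days, against 4.03% of all genes, and 0 lower. Their median interaction was 0.48, with 19 above 0. It was 0.09 without control replicate 4 at 12 days, 0.81 without control replicate 4 at 24 h, 0.63 in replicates 1, 2 and 5 and 0.21 in replicates 3 and 4. Within each replicate number the mean level of these genes at 12 days was higher with QpE than in its control, while at 24 h the order was mixed. With the replicate block within each time none of them was called in the interaction either. Fabp4, the fatty acid carrier of fat cells, had 3087, 2883, 2106, 2278 and 3628 FPKM with QpE at 12 days, against 2318, 1865, 539.6, 468 and 2645 FPKM in 12 day controls. At 24 h it had 139 to 174 FPKM with QpE, against 52.2 to 176 FPKM in controls. Its interaction was 0.80 ± 0.61 (limma, adjusted p = 0.564), or 0.45 without control replicate 4 at 12 days, with control replicates 3 and 4 far below the other 3 at 12 days. Pnpla2, the first triglyceride lipase of fat cells, averaged 709 ± 274 FPKM with QpE at 12 days and 258 ± 138 FPKM in 12 day controls (SD, n = 5 each) and rose at 12 days by 1.56 ± 0.43 (limma, adjusted p = 0.0496), with an interaction of 1.07 ± 0.59 (limma, adjusted p = 0.399), or 4.72 (adjusted p = 0.454) for its most abundant transcript alone. Pparg, the master regulator, had 162, 145, 169, 145 and 183 FPKM with QpE at 12 days with unnamed transcripts added, against 131, 119, 71.0, 61.7 and 119.8 FPKM in 12 day controls, and an interaction of 0.32 (adjusted p = 0.578), while named transcripts alone gave -0.15 ± 0.45. Cebpa, its partner, had 0.03 ± 0.45, with a 95% interval of -0.92 to 0.97.

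The enzymes that QpE inhibits in plants have mammalian relatives in Acaca and Acacb. With unnamed transcripts added, which held most of its FPKM in the 12 day QpE libraries, Acaca had 66.2, 57.8, 25, 22.1 and 45.0 FPKM with QpE at 12 days, against 40.7, 37.8, 15.9, 13.8 and 31.5 FPKM in 12 day controls. In 24 h cultures it had 10.4 to 17.6 FPKM with QpE, against 14.9 to 22.1 FPKM in controls. Within each replicate number the QpE culture at 12 days had more than its control, but the groups overlapped, and the interaction was 0.84 (limma, adjusted p = 0.301). On named transcripts it was 0.83 ± 0.89, or 0.44 without QpE replicate 1 at 12 days. The Acaca differences on named transcripts were -0.22 ± 0.63 at 12 days and -1.05 ± 0.57 at 24 h. With unnamed transcripts added they were 0.61 at 12 days and -0.24 at 24 h. The sign of the 12 day difference thus depended on which transcripts were summed. Acacb had an interaction of 0.41 ± 0.36 (limma, adjusted p = 0.618), and Fasn, which builds palmitate from malonyl-CoA, one of 0.57 ± 0.83 (limma, adjusted p = 0.795). That of Fasn was 0.21 without control replicate 4 at 12 days and 1.02 without QpE replicate 4 at 12 days. Fasn had 481, 504, 66.0, 63.7 and 484 FPKM with QpE at 12 days, against 275, 248, 63.0, 51.2 and 248 FPKM in 12 day controls. The metallothioneins Mt1 and Mt2, which bind zinc, had interactions of 1.92 ± 0.55 and 2.71 ± 0.79 (limma, adjusted p = 0.0898 and 0.0967), and with unnamed transcripts added Mt2 had 3.03 (adjusted p = 0.0439). Mt2 had 107, 65.2, 157, 126 and 564 FPKM with QpE at 12 days, against 8.67, 8.28, 61.7, 57.0 and 11 FPKM in 12 day controls, and 11.1 to 27.7 FPKM in the 24 h cultures of both groups.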

How the data were processed

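RNA from 3T3-L1 cultures was sequenced as paired 75 base reads from 100 ng of RNA with a directional kit and 13 PCR cycles, per the labels' protocols. The authors deposited FPKM per transcript. Alignment and assembly used HISAT, HISAT2 and StringTie with GRCm38, per the submitters' processing notes, and strand use in counting is not given in the sources used here. In 10 libraries the deposited table held 11 values just below 0 (lowest -7e-05), handled as a score and set to 0.

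FPKM were summed per gene name, leaving out transcripts without one, and 12389 genes with at least 1 FPKM in at least 5 of 20 libraries were tested as log2(FPKM + 1) with limma 3.58.1 (R 4.3.3) with a mean-variance trend, two-sided, Benjamini-Hochberg adjustment and a threshold of 0.05. The interaction used 20 libraries (16 residual degrees of freedom) and each time its own 10 (8 residual degrees of freedom). Differences on this scale understate changes of low genes. Depth was estimated from the steps of single-exon FPKM, of which 77.0 to 82.9% were whole within 0.1 base, so it is approximate and carries no interval. The interaction test was checked on simulated data, in which genes varied independently and 200 were changed in QpE at 12 days only. That check does not cover correlated genes or a single outlying culture. Nothing in the labels says that culture replicates were set up separately beyond their number, so p-values measure the spread between these cultures.

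The main tests did not pair cultures by replicate number, and a replicate block entered as an alternative only. Between QpE and control, the correlation of same-numbered deviations was 0.153 to 0.318 at 12 days and 0.0227 to 0.144 at 24 h. The same number was the best match for 3 of the 5 replicates at each time. Members, gene lists and tests were chosen with earlier results of these data known. Named genes were the 10 largest called interactions each way with non-overlapping 12 day groups, a group mean of at least 5 FPKM and a call also with weights per group, the 5 each way with opposite signs at the 2 times, the 5 smallest p at 24 h, list members by call or p, and a set of fat cell genes; exceptions are said to be chosen after values were seen, and some genes that the rule names are not reported here. Promoters came from RefSeq on GRCm38.p6. Alternatives varied the libraries, scaling, filter, pseudocount, pairing, weights and transcripts summed. The 6 h libraries entered 1 alternative only. None of the 30 libraries is labelled as a dexamethasone control, so none was analysed here.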

Additional observations from a re-analysis of the deposited data

Results flagged for a closer look

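The effect of QpE differed between 12 days and 24 h by test in 26 genes with a higher and 42 with a lower difference at 12 days. Among the named ones, differences had opposite signs at the times in Alkbh2 (interaction 2.91), Itih4 (2.49), Dhrs3 (1.58), Ccdc107 (1.20), Rora (0.94), Sccpdh (0.94), Mtor (0.65) and Apopt1 (0.57). On the lower side they were Ccnf (-1.73), Fam20c (-1.43), Cpt1a (-1.22), Has2 (-1.19), Eva1b (-1.13) and Plxnd1 (-0.69). At 24 h the differences of Itih4 (-0.01) and Sccpdh (-0.01) were close to 0. Those of Ccnf (0.06 ± 0.11), Fam20c (0.05 ± 0.11) and Eva1b (0.07 ± 0.10) were smaller than their SE. Those of Has2 (0.08 ± 0.07) and Cpt1a (0.11 ± 0.10) were slightly larger than their SE (limma, unadjusted p = 0.273 and 0.297). These signs are those of named transcripts. With unnamed transcripts added, Mtor (0.51 at 12 days, 0.02 at 24 h) and Eva1b (-1.36 and -0.09) had the same sign at both times.

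On named transcripts, a single culture stood far from the other 4 of its group in 31 of 288 gene groups (10.8%), where chance gives about 1 in 20. QpE replicate 5 at 12 days held 14 of the 31. It was high for Itih4 (114.5 FPKM), Sccpdh (66.2 FPKM), Fkbp5 (161.2 FPKM) and Hk2 (81.5 FPKM). It was low for Sod3 (11.7 FPKM), Cpt1a (5.48 FPKM), Eva1b (14.3 FPKM), Rnd3 (6.69 FPKM), Tgfb3 (0.92 FPKM), Abhd5 (44.1 FPKM), Dcn (26.4 FPKM), Lum (1.43 FPKM), Adamts5 (2.45 FPKM) and Cxcl5 (0.723 FPKM). Samd14 had 0.76 FPKM in QpE replicate 4 at 12 days, where the other 4 were listed at 0.

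In 12 day controls, replicate 3 was low for Ccnf (2.81 FPKM), Abhd5 (28.3 FPKM) and Rdh10 (7.58 FPKM). Replicate 5 was high for Sod3 (79.5 FPKM) and Stc1 (8.43 FPKM), replicate 4 for Igsf10 (9.04 FPKM) and replicate 1 for Mtor (11.4 FPKM). With QpE at 24 h, replicate 4 was low for Tgfb3 (13.3 FPKM) and Mxi1 (3.55 FPKM), replicate 5 was low for Abhd5 (27.1 FPKM) and replicate 3 was high for Alkbh2 (0.373 FPKM). In 24 h controls, replicate 2 was low for Sod3 (57.5 FPKM) and high for Atf3 (1.09 FPKM), replicate 4 was low for Kera (18.8 FPKM) and Hk2 (9.10 FPKM), and replicate 5 was low for Acaca (3.81 FPKM; its levels in the report include unnamed transcripts).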

How the results depend on the processing

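The interaction count depended on most settings, always beside 26 higher, 42 lower and 6 list members. With all 30 libraries it was 186, 294 and 48, with weights per group 70, 161 and 23, and with unnamed transcripts joined 65, 146 and 17. With a filter of 5 FPKM it was 42, 70 and 11, and with none 1, 3 and 0. Quantile normalization gave 11, 15 and 0, the most abundant transcript alone 0, 3 and 0, replicates 1, 2 and 5 alone 43, 11 and 15, and replicates 3 and 4 alone 0, 0 and 0. Without both libraries with high AY036118, a setting chosen after seeing the data, it was 0, 1 and 0. TPM scaling gave 16 and 50, a share of 24.2% higher against 38.2%. A replicate block within each time gave 76, 88 and 24, and a block shared by the times 37, 72 and 11. With 1 library left out the counts ran from 0 to 82 higher, 3 to 172 lower and 0 to 27 list members. The cause was not tested. Median-ratio scaling, a pseudocount of 0.1 and robust estimation moved neither direction's count by more than 1.5 times.

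At 12 days a spread shared by 20 libraries called 1067 higher and 1311 lower, the replicate block 840 higher, and leaving out 1 library 145 to 435 higher and 184 to 637 lower. At 24 h the shared spread and the block called 0 and 0 lower, and leaving out 1 library 0 to 1 higher and 0 to 2 lower.

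Of 2590 values of single genes under alternatives, 1828 kept direction and side of the threshold, 651 lost the call, 83 gained it and 28 changed sign, none of these in a gene called in the interaction. Fkbp5 had -0.22 in replicates 3 and 4. Rbms1 had -0.0057 with TPM scaling, -0.27 with unnamed transcripts, -0.00012 in replicates 1, 2 and 5, and down to -0.074 with 1 library left out (up to 0.14). Pparg had 0.32 with unnamed transcripts, 0.46 in replicates 3 and 4, and -0.31 to 0.23 with 1 library left out. Cebpa had -0.023 with TPM scaling, -0.11 with quantile normalization, -0.45 in replicates 3 and 4, and -0.15 to 0.23 with 1 left out. Plin1 had -0.13 with unnamed transcripts, Acacb -0.011 in replicates 1, 2 and 5, and Abhd5 -0.13 without the AY036118 libraries and -0.081 to 0.56 with 1 left out. Of 1116 list medians 19 moved beyond the spread between replicates. Depth is known only approximately, so no counting interval is given.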

Other observations

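Markers of thermogenic fat cells were low in most cultures. The sum of Ucp1, Cidea, Dio2, Elovl3 and Prdm16 was 0.784 to 25.5 FPKM with QpE at 12 days, against 0.515 to 2.39 FPKM in 12 day controls, with overlap. Elovl3, which elongates fatty acids and is induced by cold in brown fat, averaged 8.58 FPKM with QpE at 12 days and 0.382 FPKM in 12 day controls, while Ucp1, the uncoupling protein that defines these cells, was listed at 0 in all QpE libraries at 12 days. Elovl3 was chosen after its values were seen.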
